A study of Mus musculus with 26 samples.

Results

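The contractile unit of striated muscle, the sarcomere, is held together by a scaffold of giant proteins, Z disc and M band proteins, thin filament caps and assembly factors, and 40 genes of this scaffold were followed. The members were chosen by gene symbol, and all 40 were found among the 53465 genes listed for regenerating muscle and among the 55487 genes listed for cultured cells. Tibialis anterior (TA) muscle was sampled on day 0 and, after cardiotoxin (CTX), a venom toxin that kills muscle fibres and so starts their regeneration, on day 1, 3, 5 or 10, with 2 libraries a day. According to the methods the animals were 6-week-old male C57BL/6J mice and saline was the control, and whether day 0 was untouched or saline-injected muscle was not settled by the sources used here. The cells were C2C12, 1 mouse myoblast line, in growth medium (GM, labelled day 0) or on day 3 of differentiation medium (DM3), where myoblasts fuse into myotubes, and the 4 groups held 2 libraries each. In the arm labelled Cas9M3, called knockdown here, a lentivirus carried guides to the Mettl3 promoter and a catalytically dead Cas9 fused to the KRAB repressor under the hUbC promoter, with puromycin selection, although the design text calls the derivatives knockouts. Mettl3 is the enzyme that writes N6-methyladenosine on mRNA, and what construct the control arm (CTRL) carries is not given in the sources used here. No label says whether libraries of a group came from separate animals or cultures, so every p-value measures the spread between these libraries, which may be technical.

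Within a sarcomere, titin (Ttn) spans from the Z disc to the M band and nebulin (Neb) runs along the thin filament. Alpha-actinins crosslink the ends of thin filaments at the Z disc, where telethonin, myotilin, filamin C and PDZ-LIM proteins attach, while myomesins crosslink thick filaments at the M band. Tropomyosins line the thin filament and tropomodulins and leiomodins bind its pointed end. Other members respond to stretch (the ankyrin repeat proteins Ankrd1 and Ankrd2, Csrp3, Xirp1) or assist the folding and stability of the filaments (Unc45b, Smyd1, Klhl40, Klhl41). In healthy muscle these proteins are made mainly by the fibre itself.

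Values are FPKM, fragments on a gene scaled by its length and by a factor for each library, so levels can be compared between genes within a table. Whether the tables were scaled together is not stated, and levels were compared only within a table. The muscle libraries held 14170000 to 18820000 reads on genes and the cell libraries 14230000 to 29560000, estimated from the smallest steps in the values, and 1 read on a gene of 1 kb was worth 0.0494 to 0.0817 FPKM and 0.0315 to 0.104 FPKM. The library factor did not follow the reads on genes alone. With 16780000 reads on genes, 1 read on a gene of 1 kb was worth 0.0803 FPKM in replicate 1 of day 0. It was worth 0.0507 FPKM in replicate 1 of day 3, with 14330000 reads. In the cell table, replicate 2 of control GM had 37.9% of its summed FPKM on a single small RNA locus. The knockdown libraries numbered 2 had 11.75% and 15.7% on the same locus, and replicate 2 of control DM3 had 9.42% on a ribosomal RNA locus. Libraries of cells numbered 1 had at most 3.79% on any gene. In muscle every library had much on that small RNA locus, from 21.5% (replicate 2 of day 5) to 30.2% (replicate 1 of day 3). Xist is expressed from the inactive X chromosome of females. It was at 5.77 to 10.00 FPKM in both libraries of day 0, both of day 10 and replicate 2 of day 3. This goes against the methods, which give male mice. In the other 5 muscle libraries Xist did not exceed 0.152 FPKM, and Ddx3y, a Y-linked gene, stood at 6.10 FPKM or more. Day 1 and day 5 therefore cannot be told apart from this difference when they are set against day 0, and results for day 3 are also given with libraries of 1 kind alone. Mettl3 stood at 4.70 and 5.65 FPKM in control GM, 0.331 and 0.118 FPKM in knockdown GM, 4.68 and 5.15 FPKM in control DM3 and 0.148 and 0.0805 FPKM in knockdown DM3, so the knockdown libraries were below every control library. In muscle Mettl3 was at 3.59 to 4.97 FPKM and was called in 0 of the 7 comparisons of days.

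Promoter sequence was read for 5 members that the results turn on, 3 that rose on day 3 (Ankrd1, Mybph, Obsl1), 1 that fell in several comparisons (Myom1) and the 1 called between knockdown and control (Tmod1). Each run is the 250 bases before a RefSeq start on build GRCm38.p6, 5′ to 3′ on the strand of the gene. The windows of Ankrd1, Myom1 and Tmod1 lie inside the GENCODE span of their gene. The bases before the outermost start of those genes were therefore not read. Capitals mark E-boxes (CANNTG, the motif of MyoD-type factors) and MCAT elements (CATTCC or its reverse complement, the motif of TEAD factors). They lie at chr19:36119845-36120094 (minus strand), chr1:134193198-134193447 (plus), chr1:75506453-75506702 (minus), chr17:71019307-71019556 (plus) and chr4:46038972-46039221 (plus).
Ankrd1: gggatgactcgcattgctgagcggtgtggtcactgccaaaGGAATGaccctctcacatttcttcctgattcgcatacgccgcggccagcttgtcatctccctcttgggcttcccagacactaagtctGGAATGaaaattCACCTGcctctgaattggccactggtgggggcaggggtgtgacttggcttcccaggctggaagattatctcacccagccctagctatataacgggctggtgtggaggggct
Mybph: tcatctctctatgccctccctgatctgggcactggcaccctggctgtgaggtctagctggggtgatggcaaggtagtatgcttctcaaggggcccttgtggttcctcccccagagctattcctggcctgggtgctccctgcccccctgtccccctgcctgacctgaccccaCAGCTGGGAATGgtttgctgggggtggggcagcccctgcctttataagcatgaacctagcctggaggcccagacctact
Obsl1: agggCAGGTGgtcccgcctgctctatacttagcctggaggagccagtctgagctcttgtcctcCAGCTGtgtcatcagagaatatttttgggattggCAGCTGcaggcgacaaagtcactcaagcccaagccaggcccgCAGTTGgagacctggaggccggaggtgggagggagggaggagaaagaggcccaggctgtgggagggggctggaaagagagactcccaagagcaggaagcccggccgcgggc
Myom1: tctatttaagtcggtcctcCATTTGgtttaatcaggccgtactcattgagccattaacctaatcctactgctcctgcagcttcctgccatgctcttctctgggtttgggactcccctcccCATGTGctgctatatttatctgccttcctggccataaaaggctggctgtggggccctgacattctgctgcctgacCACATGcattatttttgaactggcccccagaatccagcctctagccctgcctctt
Tmod1: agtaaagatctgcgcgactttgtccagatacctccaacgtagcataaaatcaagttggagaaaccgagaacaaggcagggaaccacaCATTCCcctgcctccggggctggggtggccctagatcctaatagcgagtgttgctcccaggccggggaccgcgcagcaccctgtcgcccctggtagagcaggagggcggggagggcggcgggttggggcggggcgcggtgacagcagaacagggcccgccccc

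The Ankrd1 window holds 2 MCAT elements and 1 E-box, the Mybph window an E-box and an MCAT element side by side, and the Obsl1 window 4 E-boxes. The Myom1 window has 3 E-boxes and no MCAT element, and the Tmod1 window 1 MCAT element and no E-box. Of the 40 members, 31 had 1 or more windows, 36 in all. An MCAT element on either strand was in 7 of the 36 windows (19.4%) and in 12.6% of the 32851 windows of all genes, and CANNTG, which reads the same on both strands, was in 27 (75%) and in 66.2%. The MEF2 motif was in 6 of the windows (16.7%), those of Ttn, Myom3, Myoz2, Xirp2, Synpo2 and Klhl41, and in 2.92% of all windows. A CArG box, the motif of serum response factor, was in 3 windows of Myom1 and Ldb3 (8.33%, against 1.47%). The Ldb3 windows overlap and hold the same box, which is thus counted more than once in that share. TATAAA on the strand of the gene was in 1 window, that of Ankrd2 (2.78%, against 7.59%), and CAGCTG, which counts among the E-boxes, was in 10 (27.8%, against 13.0%). A match describes letters in a window and was not tested as a binding site.

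After CTX, most of the scaffold fell to its lowest level on day 3 and stood near its day 0 level on day 10. The lowest mean was on day 3 for 30 of the 40 members, or 75%, against 32.2% of all 16753 genes tested. Another 5, or 12.5% against 27.7% of all genes, were lowest on day 0, which were Obsl1, Mybph, Csrp3, Ankrd1 and Klhl40. The highest mean was on day 10 for 14 members, on day 0 for 11, on day 1 for 9, and on days 3 and 5 for 3 each. Of all genes tested, 12.5%, 26.1%, 17.4%, 31.5% and 12.5% were highest on days 10, 0, 1, 3 and 5. The member shares of 27.5% on day 0 and 22.5% on day 1 were near those of all genes. The 9 members with their highest mean on day 1 were Flnc, Csrp3, Ankrd1, Ankrd2, Xirp1, Xirp2, Pdlim3, Klhl40 and Klhl41. For Xirp1, Xirp2 and Klhl41 the day 1 libraries overlapped those of day 0.

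**Figure D1:**
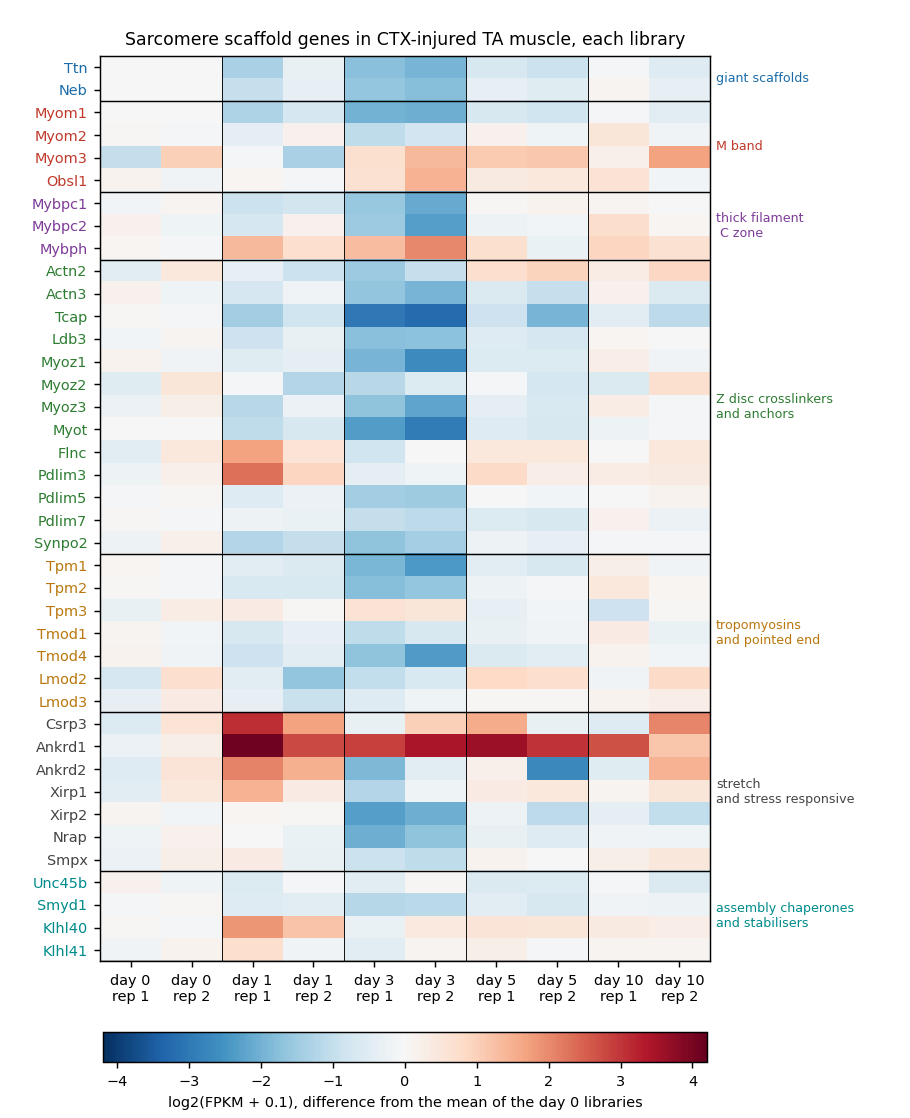
Each row is a member, grouped by role, and each column a TA library by day after CTX. Colour gives log2(FPKM + 0.1) less its mean over the day 0 libraries, with blue below and red above day 0. The day 3 columns are blue for most rows, while Ankrd1, Mybph and Obsl1 are red there.

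Comparisons were made with limma on log2(FPKM + 0.1), and calls needed an adjusted p (Benjamini-Hochberg over all genes tested) no higher than 0.05. The smallest two-sided p of an exact permutation test on 2 against 2 libraries is 0.333, so each call rests on a spread that limma partly shares between genes. Between day 3 and day 0, 24 members fell, 3 rose and 13 were not called. With quantile normalization 21 members were called, as Myom2, Actn2, Actn3, Tpm2, Tmod1 and Smpx lost their calls. Of all genes tested, 48.8% were called, 24.3% lower and 24.5% higher, and the median log2 fold change was -1.18 for the members and 0.01 for all genes. Both the adjusted p and a log2 fold change of 2 in size were passed by 8 members, against 13.3% of all genes, namely Tcap, Myot, Myoz1, Tpm1, Xirp2, Tmod4 and Myom1 on the low side and Ankrd1 on the high side. This number was 3 with quantile normalization, 5 with replicate 1 as the only day 3 library, and 12 with replicate 2 as the only one or with a term for Xist. With replicate 2 as the only day 3 library, so that the libraries compared all expressed Xist, 24 members were called, 21 lower and 3 higher. In that fit the lone library is assumed to vary like the other groups, whose spread includes libraries without Xist. Myom2, Actn2 and Tmod1 lost their calls. Values over all genes are not given here for the calls of fits other than the main one. In the same libraries, markers of mature fibres summed to 56600.4 and 51233 FPKM on day 0 and 14792 and 11893 FPKM on day 3, with 7 of 7 lower. Macrophage markers rose, 6 of 6, from a sum of 41.9 and 85.3 FPKM to 1412 and 1391 FPKM. In bulk tissue, fewer fibres and less RNA per fibre cannot be told apart, and the part of these markers in the members' changes was not tested.

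**Figure D2:**
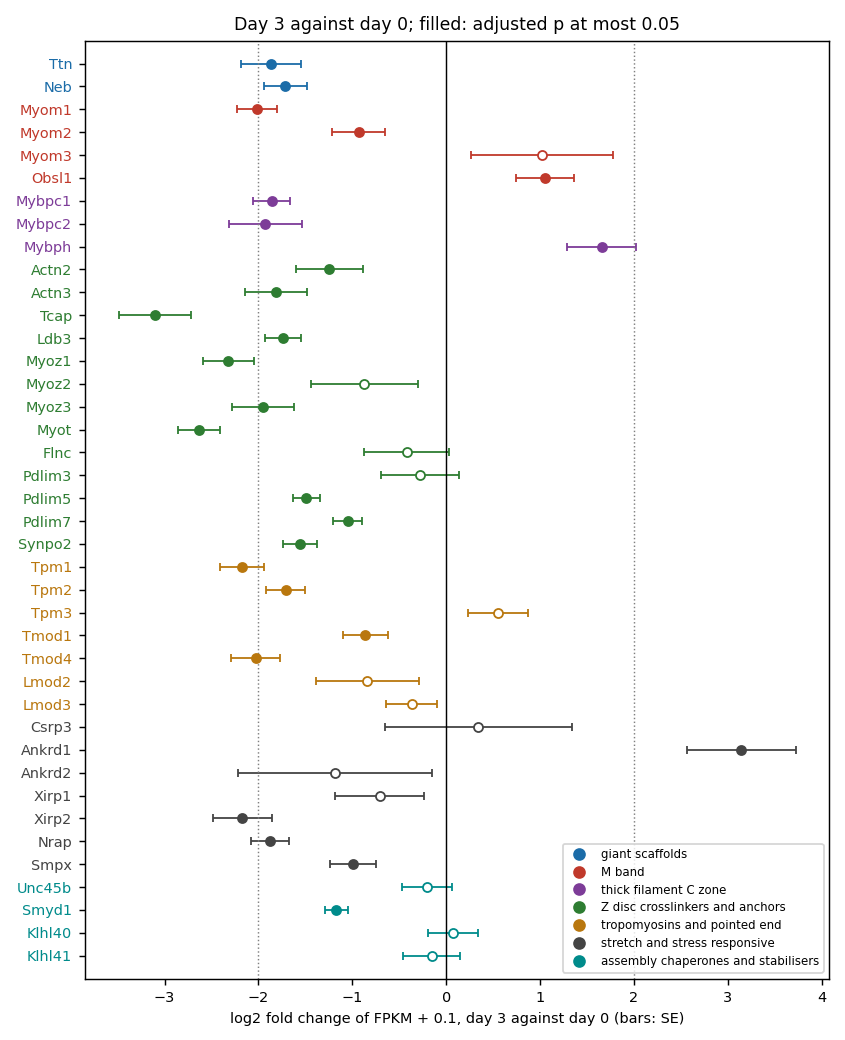
Points are log2 fold changes of the 40 members on day 3 against day 0 (horizontal axis), grouped by role, with bars for the SE of the limma fit and dotted lines at a log2 fold change of 2 in either direction. Filled points were called. The largest falls are Tcap and Myot and the largest rise is Ankrd1.

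Both giant scaffolds fell. Ttn, whose product sets the length and elasticity of the sarcomere, stood at 150.3 and 152 FPKM on day 0, 58.7 and 121 on day 1, 44.4 and 38.6 on day 3, 95.6 and 81.2 on day 5, with 145 and 104 on day 10. Both day 3 libraries were below every other library (log2 fold change -1.87 ± 0.32 (SE), adjusted p = 0.00269), and all injured libraries were below both day 0 libraries. Neb, which runs the length of the thin filament, was at 196 and 196 FPKM on day 0, 63 and 56.6 on day 3, 153 and 137 on day 5, with 210.3 and 155 on day 10. It was lowest in the day 3 libraries (log2 fold change -1.71 ± 0.23 (SE), adjusted p = 0.00104) and rose again by day 5 (log2 fold change 1.27 ± 0.23 (SE), adjusted p = 0.0158).

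The 4 M band members did not move together, with 2 lower, 1 higher and 1 not called on day 3. Myom1, the principal thick filament crosslinker, was at 331 and 323 FPKM on day 0, 134 and 199 on day 1, 82.2 and 79.4 on day 3, 204 and 185 on day 5, with 310.0 and 236 on day 10. All libraries of days 1, 3 and 5 were below both day 0 libraries, and the fall was called on day 1 (log2 fold change -1.0 ± 0.21 (SE), adjusted p = 0.0415), day 3 (log2 fold change -2.02 ± 0.21 (SE), adjusted p = 0.00046) and day 5 (log2 fold change -0.75 ± 0.21 (SE), adjusted p = 0.0384). Part of its exons, 207 bp, overlaps Myl12a on the opposite strand, and the strand setting of the counting was not stated, so reads there cannot be told apart. Myom2, the myomesin of fast fibres, was at 189.9 and 177 FPKM on day 0 and 87.5 and 105 on day 3 (log2 fold change -0.93 ± 0.28 (SE), adjusted p = 0.0267), a call that was lost without replicate 1 or replicate 2 of either day. Obsl1, which links myomesin and titin at the M band and is also expressed outside muscle, went the other way, from 16.6 and 13.5 FPKM on day 0 to 23.3 and 41.2 on day 3 (log2 fold change 1.05 ± 0.31 (SE), adjusted p = 0.0252). Both day 3 libraries were above all 8 others, but the call was lost without replicate 2 of day 3 or without either day 0 library. Myom3, the myomesin of slow and intermediate fibres, was not called at 8.85 and 36.5 FPKM on day 0 and 28.6 and 46.8 on day 3 (log2 fold change 1.02 ± 0.75 (SE), adjusted p = 0.298).

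Within the thick filament C zone, the 2 myosin binding proteins C fell while their relative Mybph rose. Mybpc2, the fast isoform, was at 1120.1 and 856 FPKM on day 0, 605 and 1099 on day 1, 341 and 195 on day 3, 853 and 904 on day 5, with 1648 and 1041 on day 10. The 2 day 3 libraries were the lowest (log2 fold change -1.93 ± 0.39 (SE), adjusted p = 0.00514), and Mybpc1, the slow isoform, was also lowest on day 3, with 699.8 and 816 FPKM on day 0 and 249 and 174 on day 3 (log2 fold change -1.86 ± 0.20 (SE), adjusted p = 0.000481). Mybph, myosin binding protein H, was at 75.4 and 67.2 FPKM on day 0, 182 and 117 on day 1, 175 and 288 on day 3, 113 and 59.1 on day 5, with 134 and 110.3 on day 10. Its day 3 libraries were above both day 0 libraries (log2 fold change 1.65 ± 0.37 (SE), adjusted p = 0.00792) and above both day 5 libraries (log2 fold change -1.46 ± 0.37 (SE), adjusted p = 0.0414), and the day 3 call against day 0 was lost without replicate 2 of day 3. The call between days 3 and 5 was lost with no filter, with only the groups compared, with no trend, and without any 1 library other than those of day 1. Mybph exons overlap Adora1 on the opposite strand over 1162 bp.

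Of the 13 Z disc members, 10 fell on day 3 and 0 rose, and all 13 log2 fold changes were below 0. Tcap, telethonin, which caps a pair of titin molecules at the Z disc, had the largest fall of all 40 members. It was at 2110.1 and 1994 FPKM on day 0, 748 and 1153 on day 1, 258 and 220.5 on day 3, 1117 and 530.2 on day 5, with 1461 and 956 on day 10. The day 3 libraries were 8.59-fold below day 0 (log2 fold change -3.10 ± 0.39 (SE), adjusted p = 0.000766), and every later or earlier injured library was also below both day 0 libraries, which was called on day 5 (log2 fold change -1.41 ± 0.39 (SE), adjusted p = 0.0351) and not on day 10 (log2 fold change -0.80 ± 0.39 (SE), adjusted p = 0.533).
Myot, myotilin, an actinin-binding protein, went from 621 and 631 FPKM on day 0 to 124 and 82.2 on day 3 (log2 fold change -2.63 ± 0.22 (SE), adjusted p = 0.000307) and back to 429 and 393 on day 5 (log2 fold change 2.03 ± 0.22 (SE), adjusted p = 0.00533). The calsarcin Myoz1 went from 1043 and 833 to 241 and 144 FPKM (log2 fold change -2.32 ± 0.27 (SE), adjusted p = 0.000613). Actn3, the alpha-actinin of fast fibres and the Z disc member with the highest level, was at 2337 and 1826 FPKM on day 0, 655 and 528 on day 3, with 2318 and 1353 on day 10. Its fall on day 3 was called (log2 fold change -1.81 ± 0.33 (SE), adjusted p = 0.00328), but not with quantile normalization. In each of these members both day 3 libraries were the lowest.

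The remaining Z disc calls between day 3 and day 0 ran from a log2 fold change of -1.95 for Myoz3 over -1.74 for Ldb3, -1.55 for Synpo2, -1.49 for Pdlim5 and -1.24 for Actn2 to -1.05 for Pdlim7. Flnc (filamin C, which crosslinks actin and repairs damaged myofibrils), Pdlim3 and Myoz2 were not called. Flnc stood at 101 and 187 FPKM on day 0, 442 and 202 on day 1, with 76.3 and 137 on day 3, and Pdlim3 at 78.2 and 106 FPKM on day 0, 454 and 171 on day 1, with 70.8 and 79.6 on day 3. For both genes the day 1 libraries were above both day 0 libraries without a call (log2 fold change 1.12 ± 0.46 (SE), adjusted p = 0.164 for Flnc, and log2 fold change 1.61 ± 0.42 (SE), adjusted p = 0.0625 for Pdlim3). Synpo2, a Z disc protein of the chaperone-assisted turnover of filamin, was the 1 Z disc member called on day 1, from 62 and 85.3 FPKM to 30.9 and 36.3 FPKM (log2 fold change -1.12 ± 0.18 (SE), adjusted p = 0.0261).

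Of the 7 tropomyosins and pointed end proteins, 4 fell and 0 rose on day 3. Tpm1, the alpha chain of striated muscle tropomyosin, was at 2231 and 1986 FPKM on day 0, 552 and 394 on day 3, 1516 and 1321 on day 5, with 2509.6 and 1916 on day 10 (log2 fold change -2.17 ± 0.24 (SE), adjusted p = 0.000491). Tpm2, the beta chain, had the highest level of this group at 3113 and 2847 FPKM on day 0 and 865 and 955 on day 3 (log2 fold change -1.71 ± 0.21 (SE), adjusted p = 0.000676), and 4046 and 3132 FPKM on day 10. The Tpm2 call was lost with quantile normalization. In both genes the day 3 libraries lay below all 8 others. Tpm3, the slow isoform that non-muscle cells also make, was at 12.8 and 20.1 FPKM on day 0, 24.6 and 22.6 on day 3, with 8.79 and 16.6 on day 10. Its day 3 libraries were above both day 0 libraries without a call (log2 fold change 0.55 ± 0.32 (SE), adjusted p = 0.188), and it fell from day 3 to day 10 (log2 fold change -0.96 ± 0.32 (SE), adjusted p = 0.0477), a call lost without any 1 of the libraries of days 1 and 5, of day 3, or of replicate 1 of day 10. Tmod4, the tropomodulin of skeletal muscle, went from 262 and 211 to 73.4 and 44.9 FPKM (log2 fold change -2.03 ± 0.26 (SE), adjusted p = 0.000826), and Tmod1, the widely expressed one, from 90.3 and 76 to 39.7 and 52.1 FPKM (log2 fold change -0.86 ± 0.24 (SE), adjusted p = 0.0198). Tmod1 exons overlap Tstd2 on the opposite strand over 1287 bp. The leiomodins Lmod2 and Lmod3, which lengthen thin filaments, were not called, with Lmod2 at 80.5 and 209.7 FPKM on day 0 against 64 and 82.5 on day 3, and Lmod3 at 88.9 and 142 FPKM against 76.3 and 99.

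The stretch and stress responsive members held both the largest rise and several falls. Ankrd1, a transcriptional cofactor that binds titin and is induced by stretch and injury, stood at 11.1 and 15.9 FPKM on day 0, 226 and 90.6 on day 1, 97.4 and 143 on day 3, 160.5 and 109.5 on day 5, with 85.7 and 29.7 on day 10. All 8 injured libraries were above both day 0 libraries, by 10.7-fold on day 1 (log2 fold change 3.42 ± 0.58 (SE), adjusted p = 0.0273), 8.84-fold on day 3 (log2 fold change 3.14 ± 0.58 (SE), adjusted p = 0.00356) and 9.94-fold on day 5 (log2 fold change 3.31 ± 0.58 (SE), adjusted p = 0.0136), and the difference on day 10 was not called (log2 fold change 1.92 ± 0.58 (SE), adjusted p = 0.404). Its relative Ankrd2, induced by stretch in slow fibres, was at 62 and 132 FPKM on day 0, 386 and 253 on day 1, 24.2 and 65 on day 3, 106 and 13.9 on day 5, with 62.8 and 249 on day 10, with libraries of 1 day up to several-fold apart and no call on day 1 (log2 fold change 1.79 ± 1.03 (SE), adjusted p = 0.309) or day 3 (log2 fold change -1.19 ± 1.03 (SE), adjusted p = 0.371).
Xirp2, a Xin repeat protein of the intercalated disc and myotendinous junction, went from 166 and 142 FPKM on day 0 and 163 and 158 on day 1 to 31.2 and 37.3 on day 3 (log2 fold change -2.17 ± 0.31 (SE), adjusted p = 0.00136). Nrap, a scaffold of assembling myofibrils, was at 326 and 425 FPKM on day 0, 367 and 303 on day 1, with 88.9 and 115 on day 3 (log2 fold change -1.88 ± 0.20 (SE), adjusted p = 0.000483). Smpx, a small X-linked muscle protein, was at 93.7 and 132 FPKM on day 0 and 59.3 and 52.5 on day 3 (log2 fold change -0.99 ± 0.25 (SE), adjusted p = 0.0131), a call lost with quantile normalization and without replicate 2 of either day. For Xirp2 and Nrap the day 1 libraries still overlapped day 0, and the fall came between day 1 and day 3 (log2 fold change -2.23 ± 0.31 (SE), adjusted p = 0.00375 for Xirp2, and log2 fold change -1.72 ± 0.20 (SE), adjusted p = 0.00273 for Nrap). Csrp3, muscle LIM protein, was at 25.6 and 56.8 FPKM on day 0, 324 and 123 on day 1, with 30.8 and 75.9 on day 3, and Xirp1 at 35.5 and 65.6 FPKM on day 0, 133 and 61.4 on day 1, with 20.5 and 42.4 on day 3, with no call on day 3.

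Of the 4 assembly factors, 1 fell and 0 rose on day 3. Smyd1, a myosin methyltransferase and chaperone partner, was at 141 and 154 FPKM on day 0 and 64.6 and 66.7 on day 3 (log2 fold change -1.17 ± 0.12 (SE), adjusted p = 0.000473). Klhl41, an adaptor that stabilises nebulin and had the highest level of this group, was at 288 and 352 FPKM on day 0, 523 and 289 on day 1, 235 and 347 on day 3, with 341 and 349 on day 10, with all days overlapping day 0. Klhl40, which stabilises nebulin and Lmod3, was at 62.4 and 58.8 FPKM on day 0, 217 and 138 on day 1, 50.1 and 81.1 on day 3, 87.8 and 85.5 on day 5, with 78.8 and 72.9 on day 10. Its day 1 libraries were above all 8 others, which was called against day 0 (log2 fold change 1.51 ± 0.27 (SE), adjusted p = 0.0294) and against day 3 (log2 fold change -1.44 ± 0.27 (SE), adjusted p = 0.00818). Unc45b, the myosin chaperone, was at 86.3 and 66.4 FPKM on day 0 and 54.9 and 78.2 on day 3 and was not called (log2 fold change -0.21 ± 0.26 (SE), adjusted p = 0.543).

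**Figure D3:**
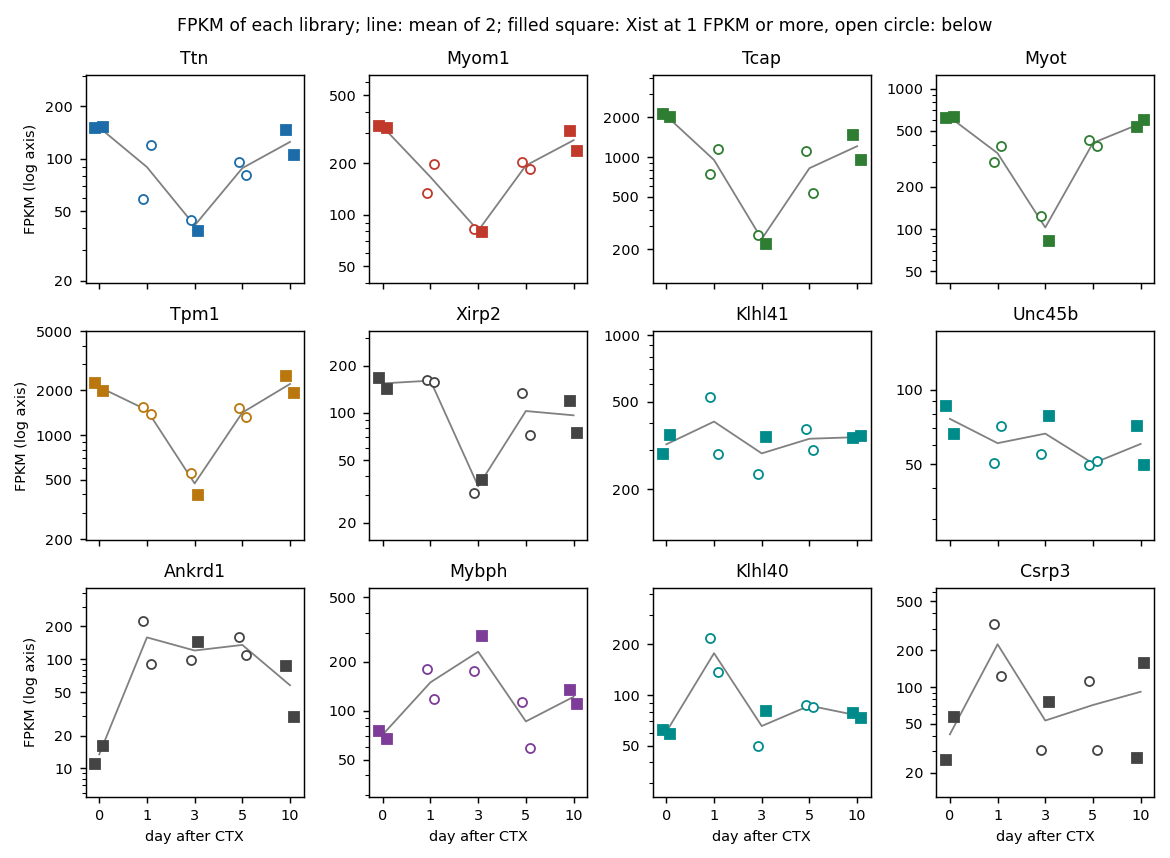
FPKM on a log axis against the day after CTX for 12 members, with 1 marker per library and a line through the mean of each day. Filled squares are libraries with Xist at 1 FPKM or more and open circles the others. Ttn, Myom1, Tcap and Myot dip on day 3, Ankrd1 is higher at every time after injury, and Klhl40 is highest on day 1.

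On day 1, 4 members were called, 2 higher (Ankrd1 and Klhl40) and 2 lower (Myom1 and Synpo2), against 6% of all genes. These calls depended on the libraries used, since 0 were made without replicate 1 of day 1, without either day 0 library, without replicate 1 of day 3 or without either day 5 library, and 1 without replicate 2 of day 3. With replicate 1 as the only day 1 library there were 9. Between day 5 and day 0, 5 members were called, 1 higher (Ankrd1) and 4 lower (Myom1, Tcap, Smyd1, Pdlim7), against 25.5% of all genes. With quantile normalization the split was 3 higher and 0 lower, since all 4 lower calls were lost and Actn2 and Klhl40 were called higher beside Ankrd1. The count ranged from 0 to 7 as single libraries were left out. Both comparisons set libraries without Xist against libraries with it. For fits other than the main ones, values over all genes are not given here.

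From day 1 to day 3, 24 members fell and 1 (Obsl1) rose, against 31.1% of all genes called in either direction. The Obsl1 call was lost with no filter, with only the groups compared, with the block, with no trend, with the Xist term, and without replicate 2 of day 3 or any 1 library of days 0, 1 and 5. With replicate 1 as the only day 3 library, so that the libraries compared all had little Xist, 8 members were called and all 8 were lower. Recovery was seen from day 3 to day 5, when 19 members rose and 1 (Mybph) fell, against 12.7% of all genes. Actn2 rose most, from 163 and 237 FPKM on day 3 to 759 and 885 on day 5 (log2 fold change 2.06 ± 0.36 (SE), adjusted p = 0.0143). With replicate 1 as the only day 3 library all calls of this comparison were lost, and with replicate 2 alone most of them were. Leaving out day 5 libraries gave 3 calls without replicate 1 and 0 without replicate 2. From day 3 to day 10, 24 members rose and 1 (Tpm3) fell, against 37.9% of all genes, and Myot (log2 fold change 2.49 ± 0.22 (SE), adjusted p = 0.000614) and Myoz1 (log2 fold change 2.38 ± 0.27 (SE), adjusted p = 0.000912) rose most. Without replicate 1 of day 3, among libraries with Xist, 22 were called, 21 higher and 1 lower, which was Obsl1 and not Tpm3. With quantile normalization 20 were higher and 4 lower, as Obsl1, Mybph and Ankrd1 joined Tpm3. The comparisons share their day 3 libraries, so their counts are not independent. Values over all genes are not given here for fits other than the main ones.

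Between day 10 and day 0, 0 of the 40 members were called with limma, 1 had an unadjusted p under 0.05 (Ankrd1), and 0 were called under any other setting tried, against 0.00597% of all genes. The log2 fold changes ranged from -0.80 for Tcap to 1.92 for Ankrd1, with a median of 0.07. Several members differed more between the 2 libraries of a day than between these days. Lmod2 was at 80.5 and 209.7 FPKM on day 0 and 118 and 226 on day 10, Myom3 at 8.85 and 36.5 against 21.1 and 58.6 FPKM, and Actn2 at 343 and 633 against 579.9 and 848 FPKM. In each case replicate 2 was higher on both days. The slow fibre markers had the same order, with a sum of 118 and 364 FPKM on day 0 and 106 and 376 FPKM on day 10. So did fibroblast markers, at 56.9 and 168 FPKM on day 0 and 151 and 371 FPKM on day 10. Macrophage markers summed to 41.9 and 85.3 FPKM and to 61 and 244 FPKM. Sums of endothelial, smooth muscle and heart markers were also higher in replicate 2 on both days, and those of fibre markers were lower. The part of these markers in the members' values was not tested.

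Members of a family took different shares of the summed FPKM of that family. Among the 3 myomesins, Myom1 made up 62.5% and 60.2% on day 0, with 41.5% and 34.3% on day 3, while Myom3 went from 1.67% and 6.8% to 14.4% and 20.2%. Ankrd1 made up 15.1% and 10.8% of Ankrd1 plus Ankrd2 on day 0, 36.9% and 26.3% on day 1, 80.1% and 68.7% on day 3, 60.2% and 88.8% on day 5, with 57.7% and 10.6% on day 10. The day 10 libraries lay far apart, and replicate 2 of that day matched day 0. For Actn2, the alpha-actinin of all fibre types, the share beside Actn3 was 12.8% and 25.7% on day 0, 19.9% and 31% on day 3, with 36.1% and 45.7% on day 5. Tpm3 made up at most 0.414% of the 3 tropomyosins on day 0 and 1.7% and 1.65% on day 3. Tmod4 outweighed Tmod1 in muscle at 74.4% and 73.5% on day 0, but made up 64.9% and 46.3% on day 3. These shares are descriptions without a test.

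**Figure D4:**
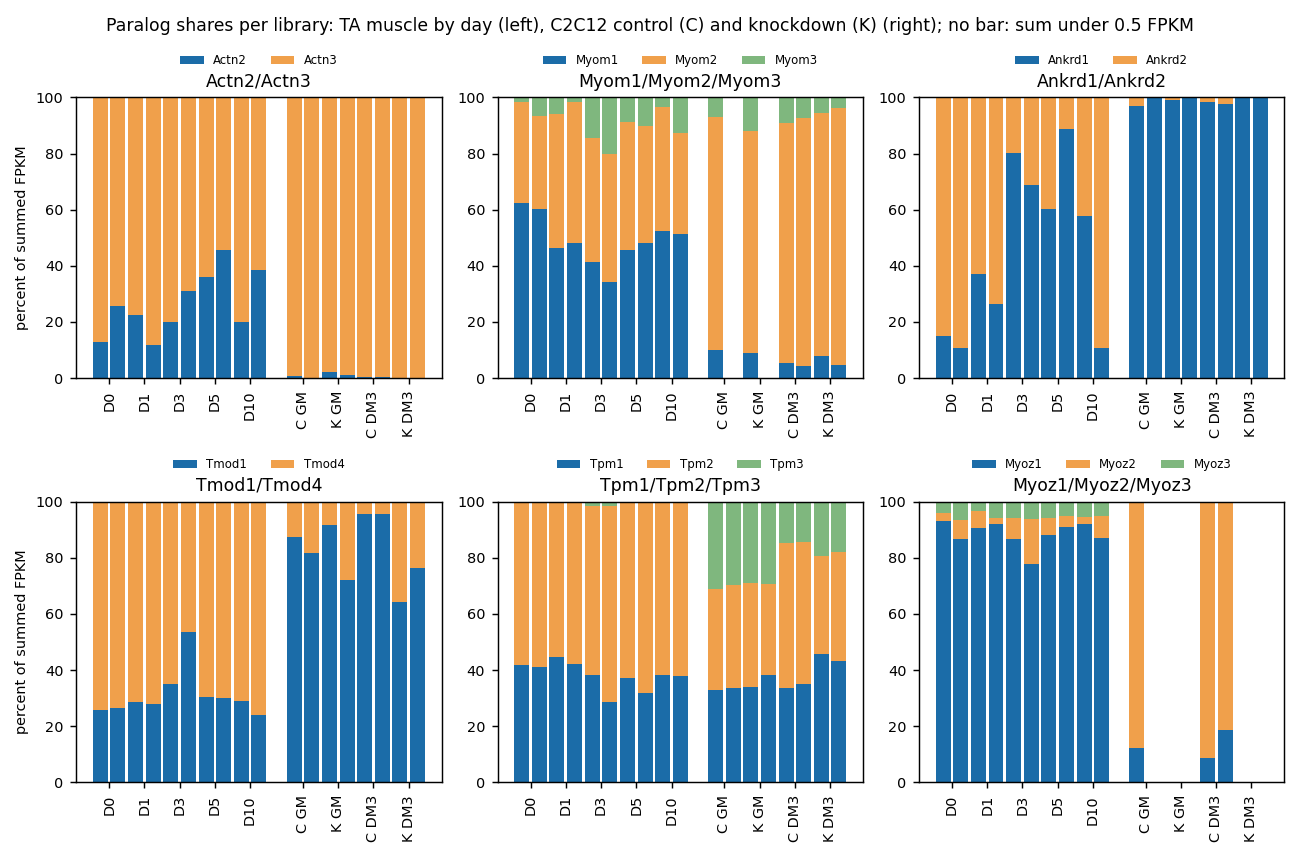
Stacked bars give the share (percent) of the summed FPKM of each family taken by each member, with 1 bar per library of muscle and of cells. No bar is drawn where the sum was under 0.5 FPKM. Ankrd1 takes the larger share on day 3 and in all cell libraries, and Tmod1 takes 95.7% of its pair in control DM3.

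Genes outside the 40 give the setting of these changes. Of 32 other sarcomere and Z disc genes, 31 were tested on day 3 against day 0, of which 17 fell, 1 rose and 13 were not called, with a median log2 fold change of -1.01. Kbtbd13, a nemaline myopathy gene of the Klhl40 family, had the largest fall (log2 fold change -2.66), and the one that rose was Palld (1.10), a palladin that non-muscle cells also make. Of 17 broadly expressed paralogs such as Actn1 and Tpm4, 16 were tested, of which 8 rose, 2 fell and 6 were not called, with a median of 0.75. Markers of other cells moved too. Myoblast and early myotube markers had 5 of 6 higher on day 3, with Myog, a myogenic transcription factor, at 7.73 and 11 FPKM on day 0 and 262 and 234 on day 3. Fibroblast markers had 3 of 5 higher, smooth muscle markers 3 higher and 1 lower of 6, endothelial markers 1 of 4 lower, slow fibre markers 2 higher and 2 lower of 5, and heart markers 1 higher (Tnnt2) of 4 tested, with Myl7 at 0 on day 3.

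In C2C12 cells, 31 of the 40 members passed the filter of at least 0.5 FPKM in at least 2 libraries. The 9 others stayed at or under 0.498 FPKM in every library and are Mybpc1, Mybpc2, Actn2, Tcap, Myoz1, Myoz3, Myot, Tmod4 and Xirp2. A second set was present in all 4 groups, with Tpm1, Tpm2, Tpm3, Ankrd1, Flnc, Pdlim5 and Pdlim7 at 9.67 FPKM or more in every library. GM libraries differed by replicate number for many members, with Mybph at 10.9 and 0.445 FPKM in control and 7.48 and 0.0935 FPKM in knockdown, and Smpx at 0.387 and 0 against 0.752 and 0 FPKM. Replicate 1 was the higher one in both arms. Libraries with the same number deviated together over all genes, so fits with the replicate number as a block are given beside the main ones.

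**Figure D5:**
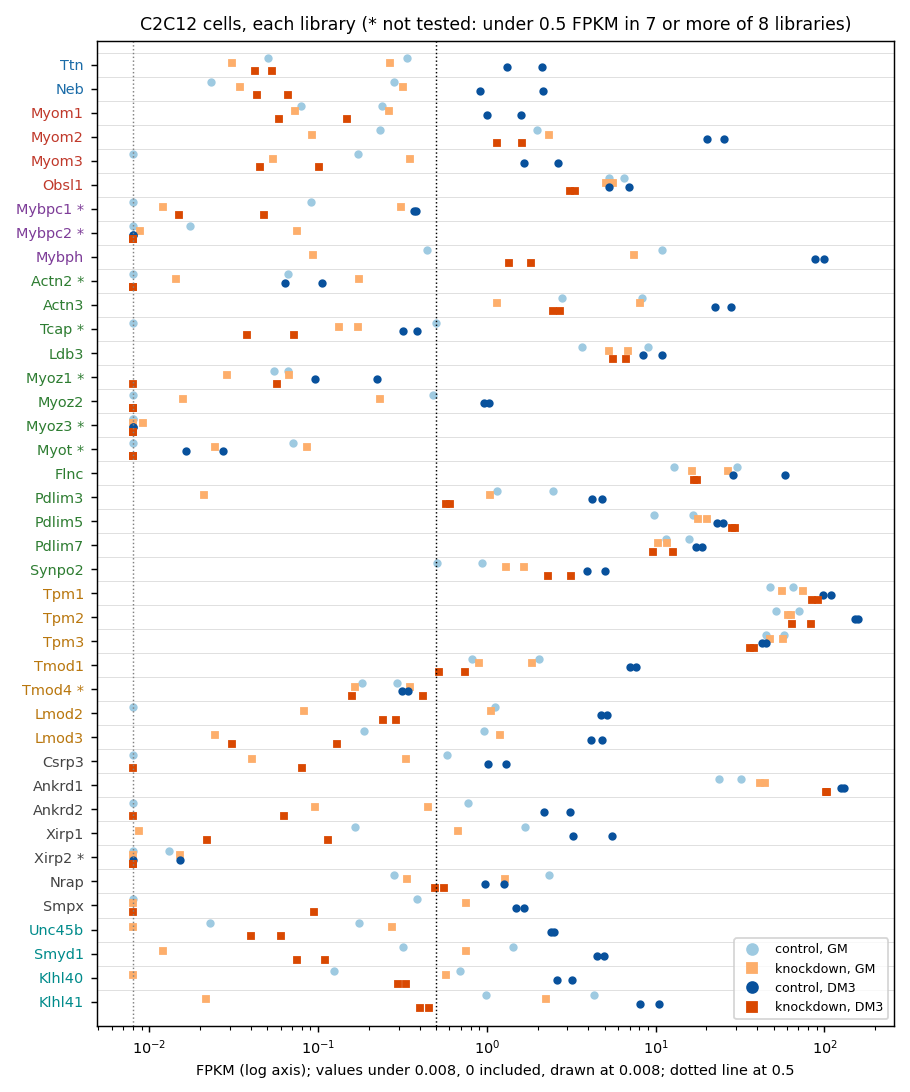
FPKM of members in the 8 C2C12 libraries, grouped by role, on a log axis, with circles for control, squares for knockdown, pale colours for GM and dark ones for DM3. Values under 0.008 FPKM are drawn at the left dotted line, the other dotted line marks 0.5 FPKM, and an asterisk marks members not tested. Control DM3 libraries lie above knockdown DM3 libraries for every tested member but Pdlim5.

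When control cells went from GM to DM3, 2 members were called, both higher, against 1.14% of all genes called in either direction. Ankrd1 was at 23.9 and 31.9 FPKM in GM and 125 and 131 on DM3 (log2 fold change 2.21 ± 0.20 (SE), adjusted p = 0.0206), and Synpo2 at 0.935 and 0.506 against 5.03 and 3.93 FPKM (log2 fold change 2.52 ± 0.35 (SE), adjusted p = 0.0394). For both the DM3 libraries lay above the GM libraries. An unadjusted p under 0.05 was found for 20 members, and 30 of 31 log2 fold changes were above 0, with a median of 2.41. Values over all genes are not given here for these, or for the fits with a library left out. In 26 members both DM3 libraries lay above both GM libraries, as did 24.8% of all genes. Ttn, Neb, Myom1, Myom3, Myoz2 and Unc45b reached 0.5 FPKM only in control DM3, so for them this order was fixed by the filter. Csrp3, Ankrd2 and Smpx also needed the control DM3 libraries to pass it. With the replicate block 5 members were called, against 2.97% of all genes, which adds Myom3 (adjusted p = 0.0348), Tpm2 (adjusted p = 0.0316) and Tmod1 (adjusted p = 0.0324). Leaving out replicate 1 of control GM gave 17 calls, and leaving out either control DM3 library or either knockdown DM3 library gave 0.

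Some of the larger differences between DM3 and GM were not called. Mybph went from 10.9 and 0.445 FPKM to 99.5 and 87.8 FPKM (log2 fold change 5.26 ± 1.93 (SE), adjusted p = 0.238), and Myom2 from 1.99 and 0.234 FPKM to 25.3 and 20.05 FPKM (log2 fold change 4.76 ± 1.30 (SE), adjusted p = 0.151). In both genes the GM libraries were far apart. Tpm3, the isoform that non-muscle cells also make, was at 45.2 and 57.2 FPKM in GM and 42.6 and 44.8 on DM3 (log2 fold change -0.22 ± 0.19 (SE), adjusted p = 0.541), and its share of the 3 tropomyosins was 31.3% and 29.7% in GM and 14.6% and 14.4% on DM3. In the knockdown arm, 0 members were called with limma between DM3 and GM, 3 had an unadjusted p under 0.05, and other settings called 0 or 1, against 0.0289% of all genes. Ankrd1 came closest, at 41.4 and 44.5 FPKM in GM and 104 and 102 on DM3 (log2 fold change 1.26 ± 0.20 (SE), adjusted p = 0.0799).

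On DM3, members were lower in the knockdown than in the control nearly throughout, but few differences were called. In 30 of the 31 tested members both knockdown libraries lay below both control libraries, which held for 34.2% of all genes, and the median log2 fold change was -3.23. Ttn, Neb, Myom1, Myom3, Myoz2 and Unc45b passed the filter only through the control DM3 libraries, so for them this order was fixed in advance. Csrp3, Ankrd2 and Smpx also needed those libraries to pass. The exception to the order was Pdlim5, an anchor of protein kinases at the Z disc, at 25.2 and 23.1 FPKM in control and 29.5 and 28.3 in knockdown (log2 fold change 0.26 ± 0.26 (SE), adjusted p = 0.712). The test called 1 member, against 1.98% of all genes, and 24 had an unadjusted p under 0.05. Values over all genes are not given here for the median, the unadjusted p or the fits with a library left out. The called member was Tmod1, at 7.6 and 7.08 FPKM in control DM3 and 0.746 and 0.518 in knockdown DM3, with 2.03 and 0.814 against 1.85 and 0.897 FPKM in GM. Both knockdown DM3 libraries were below the 6 others (log2 fold change -3.36 ± 0.50 (SE), adjusted p = 0.0357). The call was lost without any 1 of the 4 DM3 libraries. Leaving out 1 GM library gave 4 to 9 calls (7 without replicate 1 of control GM, 9 without replicate 2).

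Other fits of the same values gave more calls. With the replicate block 10 members were lower, against 3.65% of all genes, and these were Tmod1 (adjusted p = 0.0159), Ttn (0.0363), Neb (0.0438), Myom1 (0.0387), Myom3 (0.0282), Tpm2 (0.0394), Lmod3 (0.0389), Xirp1 (0.0286), Unc45b (0.040) and Smyd1 (0.0372). When the 4 DM3 libraries were fitted alone, 22 members were lower, against 19.1% of all genes.

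By role, Ttn was at 2.11 and 1.32 FPKM in control DM3 and 0.0532 and 0.0424 in knockdown DM3 (log2 fold change -3.59 ± 0.76 (SE), adjusted p = 0.0778). Neb was at 2.16 and 0.91 against 0.0659 and 0.0434 FPKM (log2 fold change -3.29 ± 0.86 (SE), adjusted p = 0.116). At the M band Myom2 was at 25.3 and 20.05 against 1.63 and 1.15 FPKM (log2 fold change -3.95 ± 1.30 (SE), adjusted p = 0.183). All these knockdown libraries were below the control ones, and Obsl1 was too, by a smaller amount, at 6.95 and 5.29 against 3.12 and 3.33 FPKM (log2 fold change -0.89 ± 0.21 (SE), adjusted p = 0.10). Mybph had the largest difference of all members, at 99.5 and 87.8 FPKM in control and 1.82 and 1.34 FPKM in knockdown (log2 fold change -5.81 ± 1.93 (SE), adjusted p = 0.189), with an adjusted p of 0.00161 when the DM3 libraries were fitted alone.

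Among Z disc members, Actn3 was at 27.8 and 22.4 FPKM in control DM3 and 2.46 and 2.7 in knockdown (log2 fold change -3.23 ± 0.90 (SE), adjusted p = 0.131), and Flnc at 58.1 and 28.7 against 17.7 and 16.9 FPKM (log2 fold change -1.23 ± 0.51 (SE), adjusted p = 0.284). Myoz2 was at 1.03 and 0.965 FPKM in control and was listed at 0 in both knockdown libraries, so no fold is given. Differences were smaller for Ldb3 (log2 fold change -0.63), Pdlim7 (-0.70) and Synpo2 (-0.71). Among the tropomyosins, which non-muscle cells also express, Tpm1 was at 98.5 and 109 against 84.9 and 92.2 FPKM (log2 fold change -0.23 ± 0.24 (SE), adjusted p = 0.724), Tpm3 was at 42.6 and 44.8 against 36.1 and 38.1 FPKM, and Tpm2 was at 151 and 158 against 64.4 and 83.1 FPKM (log2 fold change -1.08 ± 0.23 (SE), adjusted p = 0.0766). Lmod2 was at 5.13 and 4.77 against 0.291 and 0.241 FPKM and Lmod3 at 4.82 and 4.15 against 0.13 and 0.0307 FPKM, with log2 fold changes of -3.79 and -4.72. Whether the pointed end proteins and the tropomyosins differ in this was not tested.

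Among the stretch responsive members, Ankrd1 was at 125 and 131 FPKM in control DM3 and 104 and 102 in knockdown (log2 fold change -0.31 ± 0.20 (SE), adjusted p = 0.51), Ankrd2 at 2.18 and 3.11 against 0.0631 and 0 FPKM (log2 fold change -4.41 ± 1.08 (SE), adjusted p = 0.104) and Nrap at 1.26 and 0.971 against 0.56 and 0.494 FPKM (log2 fold change -0.95 ± 0.93 (SE), adjusted p = 0.704). Whether these members differ from each other was not tested. Xirp1 was at 5.5 and 3.24 against 0.115 and 0.0219 FPKM (log2 fold change -4.74 ± 1.20 (SE), adjusted p = 0.11). The 4 assembly factors were all lower, with Klhl41 at 10.4 and 8.12 against 0.454 and 0.404 FPKM (log2 fold change -4.14 ± 1.35 (SE), adjusted p = 0.181), Unc45b at 2.39 and 2.5 against 0.0399 and 0.0606 FPKM (log2 fold change -4.09 ± 0.77 (SE), adjusted p = 0.0606), Smyd1 at 4.94 and 4.52 against 0.11 and 0.0749 FPKM (log2 fold change -4.65 ± 1.03 (SE), adjusted p = 0.0826) and Klhl40 with a log2 fold change of -2.84. None of these passed the main test, and Unc45b and Smyd1 passed it with the block.

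In GM, with limma 0 of the 31 were called between knockdown and control, against 0% of all genes, 2 had an unadjusted p under 0.05, and 0 were called under any other setting tried. The median log2 fold change was -0.00262, and 15 values lay above 0 and 16 below. Mettl3, the gene targeted, was itself not called by limma in GM (log2 fold change -4.10 ± 0.40 (SE), adjusted p = 0.188). It was called on DM3 (log2 fold change -4.56 ± 0.40 (SE), adjusted p = 0.0187). A lack of calls in GM therefore says little about the members. Pdlim3 was at 2.47 and 1.15 FPKM in control and 1.05 and 0.0212 in knockdown (log2 fold change -2.26 ± 0.99 (SE), adjusted p = 0.574), and Ankrd1 at 23.9 and 31.9 against 41.4 and 44.5 FPKM (log2 fold change 0.63 ± 0.20 (SE), adjusted p = 0.463). The difference between the knockdown effect on DM3 and that in GM was tested itself, and 0 of 31 members were called with limma, against 0% of all genes, with 12 at an unadjusted p under 0.05 and 0 under any other setting tried. All 31 estimates were below 0, with a median of -2.81, and Tmod1 had the smallest adjusted p (log2 fold change -3.36 ± 0.71 (SE), adjusted p = 0.283). Values over all genes are not given here for these signs, the median or the unadjusted p. Members that passed the filter only through control DM3 lean to values below 0 by that choice.

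Most muscle differentiation markers moved with the members in these cells. Myoblast and early myotube markers summed to 440.2 and 394 FPKM in control DM3 and 36.2 and 34.8 FPKM in knockdown DM3, and Myog was at 89.1 and 83.3 against 3.5 and 2.28 FPKM. Fibre markers summed to 671 and 634 against 81.2 and 89.9 FPKM, and slow fibre markers to 169 and 219 against 9.04 and 9.54 FPKM. In control DM3 the fibre sums were mostly Acta1 (414 and 362 FPKM) and Eno3 (218 and 236). Casq1 was low and higher in the knockdown (0.0935 and 0.0616 against 0.239 and 0.279 FPKM), and Pvalb overlapped between the arms. Of the slow fibre markers, Myh7 and Myl3 did not exceed 0.296 FPKM on DM3. The part of these markers in the members' differences was not tested. For this knockdown the paper reports the opposite direction by other measures. It describes more myosin heavy chain protein and, on day 3 of differentiation, more fusion into myotubes and higher RT-qPCR levels of fusion genes. Why the values here differ from those results was not tested. Of the 32 other sarcomere and Z disc genes, 22 were tested on DM3, of which 1 was lower (Trim54, a ubiquitin ligase of the sarcomere, log2 fold change -5.30, adjusted p = 0.0492), 0 were higher and 10 had an unadjusted p under 0.05, with a median of -0.27. The 16 broadly expressed paralogs tested had 1 higher, 0 lower and a median of 0.13. Endothelial markers summed to less than 0.2 FPKM in every library. Of the 6 macrophage markers, Adgre1, C1qa and Itgam were at 0 in all 4 groups, while the list summed to 10.1 and 1.89 FPKM in control GM, 7.39 and 5.24 in knockdown GM, 2.34 and 2.27 in control DM3 and 7.19 and 8.4 in knockdown DM3. On DM3 both knockdown sums lay above both control sums, mostly through Lyz2, a lysozyme, at 1.52 and 1.55 FPKM in control against 5.56 and 7.03 FPKM in knockdown, and the part of this in the members' differences was not tested.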

How the data were processed

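Expression was read from FPKM tables of TA muscle after CTX and of C2C12 cells. Per the methods, the authors used HISAT2 on GRCm38, featureCounts for reads per gene, and DESeq2 for the deposited FPKM. Tool versions are not given in the sources used here. The fits used limma 3.58.1 (R 4.3.3, mean-variance trend) on log2(FPKM + 0.1), one model per table, after a filter of 0.5 FPKM in 2 or more libraries, which left 16753 genes in muscle and 13824 in cells. The fit was tested on simulated data. The alternatives are listed in the closing section.

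The 40 members, their role groups and the other gene lists were chosen with earlier results of these data known. Values per library were given, in each role group, for the member with the highest mean, the called members with the largest change on day 3 and between knockdown and control on DM3, and called members that went against their group. Other members were added to show their group.

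In the cell table the 6 correlations between same-numbered libraries of their deviations from group means were 0.278 to 0.680, so the numbers pair them by this measure, and no label gives a reason. Gene positions and exon overlaps came from GENCODE M21 and promoter sequence from RefSeq. The other tools were pandas 2.3.3, numpy 2.4.6 and matplotlib 3.10.9 under Python 3.11.15. The Mettl3 overexpression libraries were not analysed here.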

Additional observations from a re-analysis of the deposited data

How the results depend on the processing

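The alternatives were other pseudocounts, filters and scalings, a fit of only the groups compared, no mean-variance trend, the replicate number as a block, a term for libraries with Xist and each library left out in turn. Counts of members called moved by over 1.5 times in these cases, and the cause was not tested. For day 1 against day 0, 2 members were called with no filter and 0 with only the groups compared or the Xist term. For day 5 against day 0 the count was 3 with no filter and with only the groups compared (1 higher, 2 lower in each), 3 with quantile normalization (3 higher, 0 lower), and 0 with the Xist term. For day 3 against day 1 it was 16 with quantile normalization, 9 with only the groups compared and 8 with the Xist term, and for day 5 against day 3 it was 0 with the Xist term. For control DM3 against GM it was 7 with a pseudocount of 1, 1 with no filter, 4 with quantile normalization, 0 with only the groups compared and 5 with the replicate block. For knockdown DM3 against GM it was 1 with quantile normalization. For knockdown against control on DM3 it was 11 with a pseudocount of 1, 7 with quantile normalization, 22 with only the groups compared, 10 with the replicate block and 2 with no trend. The block moved no other count in the cell table by as much.

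With single libraries left out, counts ranged from 0 to 9 for day 1 against day 0, 23 to 27 for day 3, 0 to 7 for day 5 and 0 to 0 for day 10, and from 8 to 25 for day 3 against day 1, 0 to 21 for day 5 against day 3 and 19 to 25 for day 10 against day 3. In cells the ranges were 0 to 17 for control DM3 against GM, 0 to 1 for knockdown DM3 against GM, 0 to 0 for knockdown against control in GM, 0 to 9 on DM3 and 0 to 0 for the difference of the 2 effects.

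In muscle, 2 of 10 correlations between same-numbered libraries were above 0.1, so the numbers do not pair them. A replicate block there gave 3 calls for day 1 against day 0 and 23 for day 3 against day 1, and left the other counts as they were.

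Quantile normalization shifted the median log2 fold change of all genes on day 3 against day 0 by -0.116. Values that changed sign were all uncalled. For day 3 against day 0 these were, with quantile normalization, Flnc (0.0650), Lmod3 (0.13), Unc45b (0.22), Pdlim3 (0.18) and Klhl41 (0.66), and with the Xist term Flnc (0.00435), Unc45b (0.0471) and Klhl41 (0.12). With single libraries left out, Flnc ranged from -0.87 (without replicate 1 of day 0) to 0.0245 (without replicate 2 of that day). Leaving out replicate 1 of day 3 gave 0.00435. Without replicate 2 and without replicate 1 of day 3, Unc45b was -0.46 and 0.0471, Klhl41 -0.44 and 0.12, Klhl40 -0.27 and 0.42, and Csrp3 -0.31 and 0.99, and Csrp3 was -0.23 without replicate 1 of day 0. For control DM3 against GM, Tpm3 was 0.0026 with quantile normalization. Depth limits the low values, since 1 read on a gene of 1 kb was worth up to 0.104 FPKM.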
